A study of Mus musculus with 18 samples.

Results

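A set of 9 genes used as markers of neuroendocrine cells were followed in genetically engineered mouse mammary tumors, with or without inactivation of the Rb family. They (Insm1, Dll3, Chga, Chgb, Calca, Syp, Snap25, Stmn2 and Eno2) were taken by symbol from the 55450 genes of the count file. All samples came from C57Bl/6 females, with 1 mouse behind each sample. Of the tumors, 5 were Brca1 fl/fl, Trp53 fl/fl and TgK18GT121 Tg/+ (B1/P/Rbf), 5 were Brca1 fl/fl and Trp53 fl/fl (B1/P), 5 were Trp53 fl/fl and TgK18GT121 Tg/+ (P/Rbf), and 3 wild type mammary glands served as controls. Cre was delivered to the ducts of adult females by an adenovirus through the nipple. The transgene then makes T121, a fragment of the SV40 large T antigen that inhibits pRb, p107 and p130, from the keratin 18 promoter of epithelial cells. Every tumor group carries the Trp53 deletion, so its share in a tumor value cannot be told apart from tumor growth itself. B1/P and P/Rbf tumors differ in both Brca1 and T121, and only B1/P/Rbf against B1/P differs in T121 alone.

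Neuroendocrine cells store peptides and amines in dense-core granules and release them by regulated exocytosis, with a machinery that they share with neurons. Transcription factors such as INSM1 turn on the granule and synaptic genes, and REST keeps many of them silent in other cells.

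Of 8 genes that passed the filter on low counts, Insm1 and Calca were higher in both T121 groups than in B1/P tumors. Eno2 was lower in P/Rbf than in B1/P tumors, and the other 5 did not pass the test in any comparison between tumor groups. Insm1 and Calca had at most 3 and 2 counts in any B1/P tumor, and passed the filter through the other groups. With only the 2 groups fitted, Insm1 did not pass it against B1/P in either T121 group, nor Calca in P/Rbf. Single tumors stood out for several of the genes at once, above all P/Rbf tumor 290845 and B1/P/Rbf tumor 208863. Dll3 had at most 12 counts in any sample and did not pass the filter.

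Depth ranged from 27661173 to 37794889 expected counts per sample (median 33802254). Values below are CPM, read counts scaled to a common library size with TMM factors, and the mice of a group are always listed in one order: 208855, 208857, 208863, 209490 and 210906 for B1/P/Rbf, 225068, 225070, 246361, 255232 and 248662 for B1/P, 287842, 287845, 290860, 287822 and 290845 for P/Rbf, and 330154, 330155 and 330156 for the glands. Brca1 lay between 8.13 and 45.0 CPM in the 10 tumors with the floxed alleles and between 44.9 and 116 CPM in P/Rbf tumors. The highest of the 10 was 208863, in which Brca1 expression was only partly lost by RT-qPCR, per the study's supplement. These are whole-gene counts, which do not show the deleted exons. The glands held skeletal muscle (summed CPM of 10 markers 30910 to 62800, against 1.44 to 23.5 in 14 tumors and 746 in B1/P tumor 248662), adipocytes (10 markers, 26350 to 32950 against 7.56 to 285) and lymphocytes (8 markers, 433 to 597 against 2.23 to 33.2). All 10 luminal epithelial markers were detected in every group. In these bulk samples fewer cells of a type and less RNA per cell cannot be told apart.

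**Figure D1:**
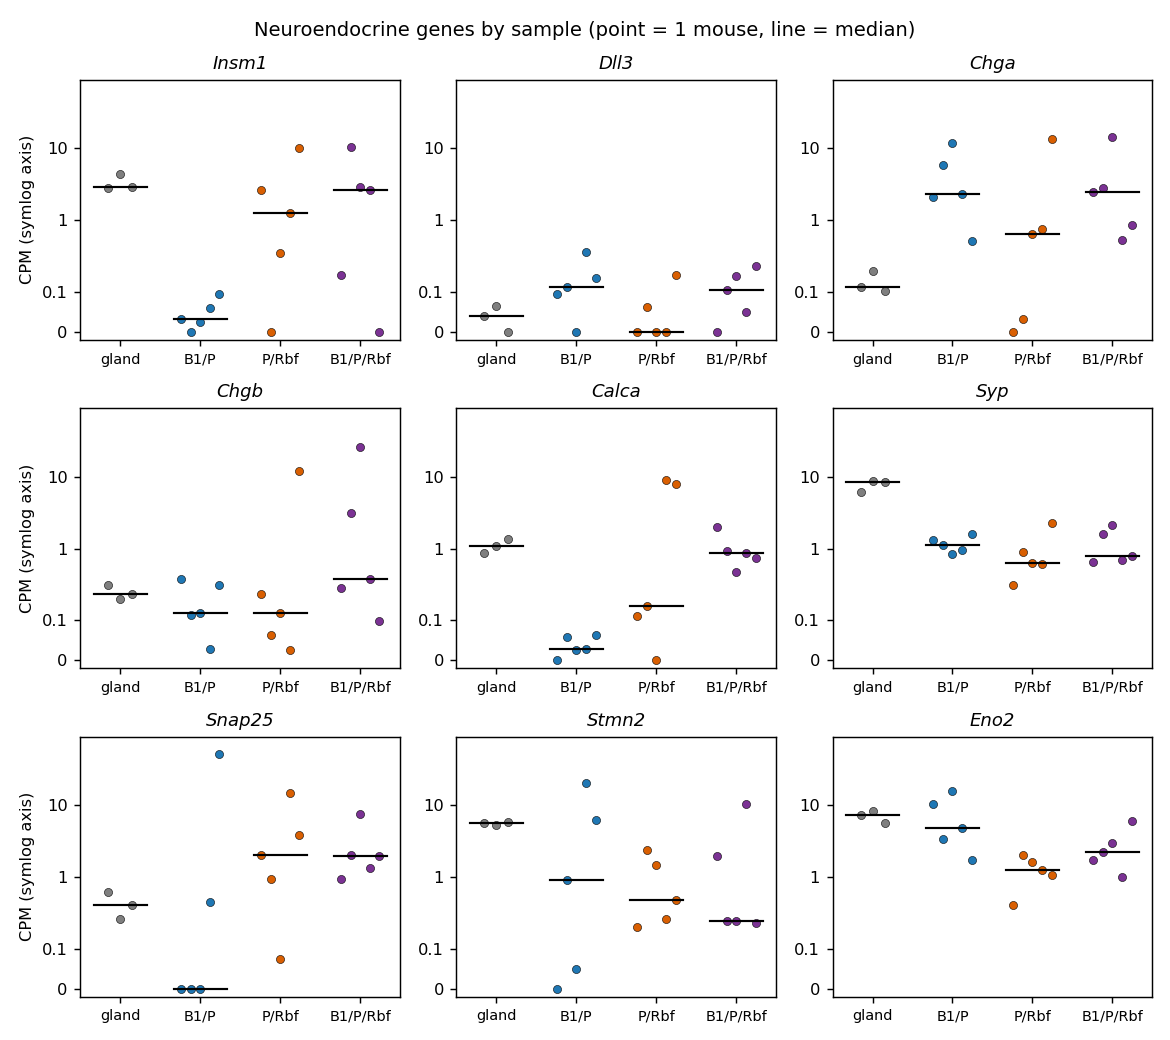
CPM of the 9 genes in 3 normal glands and 15 tumors, on an axis that is linear below 0.1 CPM and logarithmic above. Each point is 1 mouse and each line a group median. Insm1 and Calca sat at or below 0.0946 CPM in all 5 B1/P tumors.

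The promoters of Chga, Chgb and Calca are shown because they hold a short motif in common. Of the 9 genes, 6 had a promoter in the RefSeq table for GRCm38.p6, which holds 250 bases before and 50 after each start. The short form of the cAMP response element, TGACG, searched on both strands, was in 3 of these 6 and in 20.8% of all 32851 promoters. Each stretch of 30 bases runs 5′ to 3′ on the gene's strand, with the short form, or the whole element TGACGTCA that contains it, in capitals.
Chga: gggcggtcctaTGACGtaatttcctgggtg
Chgb: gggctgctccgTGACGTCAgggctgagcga
Calca: aagcacagaggTGACGcaatctgtctgggg
The stretches lie at chr12:102554886-102554915 on the plus strand for Chga, chr2:132781559-132781588 on the plus strand for Chgb and chr7:114636404-114636433 on the minus strand for Calca. The capitals begin 44, 72 and 65 bases before the RefSeq start. GENCODE M21 places an earlier start for Chgb, so that its stretch falls in the first exon there.

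The whole element TGACGTCA was in the Chgb promoter and in 1.79% of all promoters. The E-box CAGCTG, a motif of bHLH factors, was in the windows of Chga, Chgb, Calca and Dll3, and in 16.3% of all promoters. The E2F letters TTTCCCGC and TTTGGCGC were in none of the 6 windows, and in 1.07% and 0.514% of all promoters. The left part of the REST element, TTCAGCACC, was in none of the 6 and in 0.371% of all. A match is only a match of letters, and no match says nothing of the factor.

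Insm1, a zinc finger transcription factor of neuroendocrine differentiation on chromosome 2 (146221921 to 146225020, GRCm38), was nearly silent in B1/P tumors. It measured 0.170, 10.6, 2.90, 2.61 and 0 CPM in the B1/P/Rbf tumors and 2.65, 0, 0.354, 1.24 and 10.2 CPM in P/Rbf tumors. B1/P tumors had 0.0318, 0, 0.0251, 0.0591 and 0.0946 CPM, and the glands 2.78, 4.35 and 2.91 CPM. In each T121 group 4 of 5 tumors lay above every B1/P tumor and 1 was at 0. The 5 B1/P tumors together held 7 counts, against 606 in B1/P/Rbf and 453 in P/Rbf tumors. The ratio to B1/P was 82.6 for B1/P/Rbf (95% exact interval 39.8 to 206, counting error only) and 63.7 for P/Rbf (30.6 to 159). The fitted log2 fold changes, which depend on how the model treats counts this low, were 6.17 (SE 1.63, adjusted p = 0.0165, edgeR's quasi-likelihood test with Benjamini-Hochberg adjustment) and 5.99 (SE 1.62, adjusted p = 0.017). With limma-voom the adjusted p values were 0.18 and 0.165. With only the 2 groups fitted, Insm1 did not pass the filter in either comparison and had no value. The summed CPM of 10 luminal epithelial markers separated the same groups, at 884 to 3472 in B1/P, 4244 to 7620 in B1/P/Rbf and 6912 to 13280 in P/Rbf tumors, and its part in this difference, and in that of Calca, was not tested.

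Calca encodes calcitonin and the neuropeptide CGRP by alternative splicing, which gene counts do not separate, and lies on chromosome 7 (114631478 to 114636357, minus strand). B1/P/Rbf tumors held 2.01, 0.917, 0.469, 0.862 and 0.747 CPM and P/Rbf tumors 0.115, 0.158, 0, 9.11 and 7.90 CPM. B1/P tumors held 0, 0.0592, 0.0251, 0.0296 and 0.0631 CPM, and the glands 0.860, 1.08 and 1.35 CPM. The B1/P/Rbf tumors formed one tight band, all above every B1/P tumor. The P/Rbf tumors split into 2 high and 3 low ones, 4 of them above every B1/P tumor. Counts summed to 179 in B1/P/Rbf, 587 in P/Rbf and 6 in B1/P tumors, for ratios to B1/P of 28.5 (12.8 to 78.6) and 96.2 (44.0 to 263). By edgeR, the log2 fold change was 4.69 (SE 1.37, adjusted p = 0.0269) for B1/P/Rbf against B1/P and 6.47 (SE 1.45, adjusted p = 0.00627) for P/Rbf against B1/P. The first was no longer called without B1/P tumor 225068, 246361 or 255232 (adjusted p = 0.0582, 0.0583 and 0.0558), and the second not with limma-voom (adjusted p = 0.0983). With only the 2 groups fitted, Calca did not pass the filter in P/Rbf against B1/P and had no value there.

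Calcb, the neighbouring gene for the second CGRP, was at or above 0.178 CPM in B1/P/Rbf tumors, highest in 208855, between 0 and 1.14 in B1/P, 0 and 2.22 in P/Rbf tumors and 0 and 0.0391 in glands, and passed the test for B1/P/Rbf against gland (adjusted p = 0.0229, edgeR). Of the 5 genes for calcitonin and CGRP receptors, Ramp1, a partner of the CGRP receptor, was higher in B1/P/Rbf than in the B1/P group by 1.31 on the log2 scale (SE 0.38, adjusted p = 0.0272, edgeR). Ramp3 was higher in P/Rbf than in B1/P tumors (adjusted p = 0.024, edgeR), where tumor 287845 held 195 CPM and the other P/Rbf tumors 1.60 to 12.7. Calcrl, the receptor itself, was lower in all 3 tumor groups than in glands (log2 fold changes of -2.84, -1.66 and -2.95 in the order B1/P/Rbf, then B1/P, then P/Rbf). Ramp2, also a partner of Calcrl, was lower in all 3 as well. Calcr, the calcitonin receptor, was called lower than gland in B1/P/Rbf and P/Rbf tumors. Of 8 endothelial markers 4, 4 and 6 were lower than gland in B1/P/Rbf, in B1/P and in P/Rbf tumors and 0 higher. Of all genes, 20%, 16.9% and 20.3% were called lower in these comparisons. The endothelial markers had summed levels of 507 to 570.1 CPM in glands and 118 to 572 in tumors, with none at 0 throughout a group. Their part in the receptor differences was not tested.

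Chga and Chgb encode chromogranins, the acidic proteins that fill dense-core granules. Chga (chromosome 12, 102554969 to 102565028) measured 2.50, 2.83, 14.4, 0.533 and 0.844 CPM in the B1/P/Rbf tumors and 0, 0.0315, 0.633, 0.763 and 13.5 CPM in P/Rbf tumors. B1/P tumors had 2.07, 5.89, 11.7, 2.31 and 0.504 CPM, and the glands 0.117, 0.196 and 0.102 CPM. The tumor groups overlapped, and every B1/P/Rbf and B1/P tumor lay above every gland. None of its comparisons passed the test. Against gland its log2 fold changes were 4.89 for B1/P/Rbf (SE 1.95, adjusted p = 0.0578), 4.98 for B1/P (SE 1.96, adjusted p = 0.0585) and 4.38 for P/Rbf (SE 1.90, adjusted p = 0.0792, edgeR), while DESeq2 called all 3 (adjusted p = 0.00268, 0.00242 and 0.00764). The P/Rbf value rested on tumor 290845, without which it was 1.35 (adjusted p = 0.479, edgeR).

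Chgb (chromosome 2, 132781278 to 132795079) was high in 3 tumors only, all with T121. It measured 0.284, 3.16, 25.6, 0.381 and 0.0974 CPM in the B1/P/Rbf tumors and 0.230, 0.0631, 0.127, 0.0263 and 12.1 CPM in P/Rbf tumors. B1/P tumors had 0.381, 0.119, 0.126, 0.0296 and 0.315 CPM, and the glands 0.313, 0.196 and 0.237 CPM. Tumors 208863, 290845 and 208857 held 94.9% of the Chgb CPM summed over the 15 tumors. Against B1/P the log2 fold changes were 4.91 for B1/P/Rbf (SE 1.74, adjusted p = 0.0617) and 3.67 for P/Rbf (SE 1.65, adjusted p = 0.124, edgeR). The first was 2.33 (adjusted p = 0.314, edgeR) without tumor 208863, and the second turned to -0.77 (adjusted p = 0.72) without tumor 290845. DESeq2 called both (adjusted p = 0.00265 and 0.0295).

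Syp encodes synaptophysin, a membrane protein of synaptic-like vesicles, on the X chromosome (7638471 to 7653256). It measured 0.652, 1.59, 2.12, 0.685 and 0.779 CPM in the B1/P/Rbf tumors and 0.316, 0.883, 0.633, 0.605 and 2.25 CPM in P/Rbf tumors. B1/P tumors had 1.303, 1.13, 0.829, 0.946 and 1.61 CPM, and the glands 6.21, 8.74 and 8.36 CPM. The tumor groups overlapped, and all 15 tumors lay below every gland. Against gland, Syp was lower by log2 fold changes of -2.73 in B1/P/Rbf (SE 0.56, adjusted p = 0.00106), -2.74 in B1/P (SE 0.56, adjusted p = 0.00124) and -3.05 in P/Rbf tumors (SE 0.56, adjusted p = 0.000439, edgeR). The antisense gene Gm14703 overlaps Syp and had 152 counts over all samples, and whether the counting used the strand is not given in the sources used here. The part of the muscle, fat and lymphocyte RNA of the glands in this difference was not tested.

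Snap25, a SNARE protein that docks vesicles for fusion (chromosome 2, 136713453 to 136782428), was spread most widely in B1/P tumors. These had 0, 0, 0, 0.444 and 52.1 CPM. It measured 0.936, 2.05, 7.64, 1.32 and 1.98 CPM in the B1/P/Rbf group, 2.01, 0.946, 0.0759, 14.6 and 3.85 CPM in P/Rbf tumors, and 0.625, 0.262 and 0.406 CPM in glands. Tumor 248662 alone held 1653 of the 1668 counts of the B1/P group, and it is also the tumor with the skeletal muscle markers named above, whose part in this value was not tested. The log2 fold change against B1/P was -1.91 for B1/P/Rbf (SE 1.69, adjusted p = 0.468) and -1.29 for P/Rbf (SE 1.66, adjusted p = 0.615, edgeR). Without tumor 248662 both turned positive and were called, at 4.61 (adjusted p = 0.0491) and 5.24 (adjusted p = 0.0282). All 5 B1/P/Rbf tumors lay above every gland.

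Stmn2, a microtubule regulator of growing neurites (chromosome 3, 8509360 to 8561606), measured 1.99, 0.243, 0.248, 10.6 and 0.227 CPM in the B1/P/Rbf tumors and 0.201, 2.37, 1.47, 0.263 and 0.477 CPM in P/Rbf tumors. B1/P tumors had 0, 0.918, 0.0503, 20.5 and 6.18 CPM, and the glands 5.63, 5.37 and 5.92 CPM. The tumor groups overlapped and no comparison passed the test, although all 5 P/Rbf tumors lay below every gland. With only the 2 groups fitted, P/Rbf against gland was called (log2 fold change -2.555, adjusted p = 0.0286, edgeR). The 3 highest tumors were 255232, 209490 and 248662, and none of these was among the 3 highest for Chga, Chgb or Insm1, although 209490 ranked 5 of 15 for Insm1. Tumor 248662 was among the 3 highest for Syp and Snap25, and tumor 255232 for Dll3.

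Eno2, neuron-specific enolase of glycolysis (chromosome 6, 124760053 to 124769673, minus strand), was lowest in P/Rbf tumors. It measured 0.403, 2.02, 1.65, 1.26 and 1.06 CPM there and 1.73, 2.21, 3.01, 1.02 and 5.94 CPM in B1/P/Rbf tumors. B1/P tumors had 10.5, 3.44, 15.8, 4.85 and 1.70 CPM, and the glands 7.31, 8.44 and 5.65 CPM. In P/Rbf, 4 of 5 tumors lay below every B1/P tumor, and all 5 below every gland. By edgeR, P/Rbf tumors were lower than B1/P tumors with a log2 fold change of -2.50 (SE 0.61, adjusted p = 0.0102) and lower than glands with -2.48 (SE 0.66, adjusted p = 0.00733). With limma-voom these had adjusted p values of 0.0576 and 0.0555. B1/P/Rbf against B1/P gave -1.38 (SE 0.59, adjusted p = 0.117).

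Dll3, an inhibitory Notch ligand and a surface marker of small cell neuroendocrine cancer (chromosome 7, 28293553 to 28302238, minus strand), summed to 53 counts over 18 samples. B1/P/Rbf tumors had 0, 0.108, 0.165, 0.0507 and 0.227 CPM of it. There were 0.0954, 0.119, 0, 0.355 and 0.158 CPM in B1/P tumors and 0, 0.0631, 0, 0 and 0.170 CPM in P/Rbf tumors. The glands had 0.0391, 0.0655 and 0 CPM. The groups overlapped, and no difference was detectable at this depth. The smallest exact two-sided permutation p over the 6 comparisons was 0.206 (P/Rbf against B1/P, n = 5 each, 0.429 after adjustment over the 6), where 0.00794 was the smallest that could be reached.

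**Figure D2:**
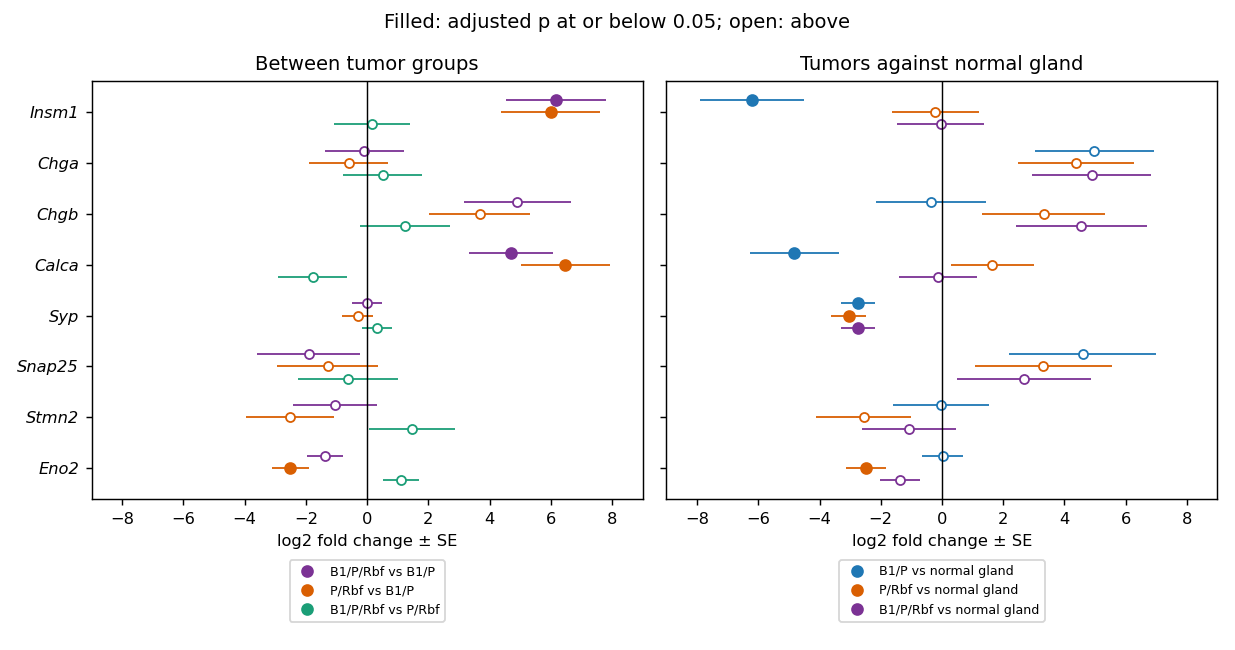
Log2 fold changes with standard errors (horizontal bars) of the 8 tested genes between tumor groups (left) and against normal gland (right), from one edgeR fit of 18 samples. Filled points have an adjusted p of 0.05 or less. Insm1 and Calca were called in both comparisons of T121 tumors with B1/P tumors.

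The counts were set beside those of all 19186 genes tested. In B1/P/Rbf against B1/P, 2 of 8 genes were called higher and 0 lower, where 16.7% of all genes were called, 7.36% higher and 9.29% lower. The median log2 fold change of the 8 was -0.042 and that of all genes -0.062. One gene, Eno2, had an unadjusted p under 0.05 on the lower side, and DESeq2 and limma-voom called 0 there. On the higher side 3 genes had an unadjusted p under 0.05. There DESeq2 called 3 (Chgb, Calca and Insm1) and limma-voom 1 (Calca), where they called 23% and 16% of all genes either way. In P/Rbf against B1/P, 2 of 8 were called higher and 1 lower, where 19.2% of all genes were called (8.43% higher and 10.8% lower), with medians of -0.456 for the 8 and -0.051 for all. As the 2 comparisons share the B1/P tumors, their calls are not independent of each other.

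In B1/P/Rbf against P/Rbf, 0 of 8 were called by edgeR, DESeq2 or limma-voom, and 0 had an unadjusted p under 0.05. Of all genes 0.281% were called there by edgeR, 0.219% higher and 0.0625% lower, against 5.35% by DESeq2 and 0.136% by limma-voom. The median of the 8 was 0.414 and that of all genes -0.011. The intervals are wide, with standard errors from 0.49 to 1.64 on the log2 scale.

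Against gland, 1 of 8 was called lower in B1/P/Rbf tumors (37% of all genes were called, 17.1% higher and 20% lower), 3 of 8 lower in B1/P tumors (33.8%, with 16.8% and 16.9%) and 2 of 8 lower in P/Rbf tumors (37.7%, with 17.4% and 20.3%). The 3 in B1/P tumors were Syp, Insm1 (log2 fold change -6.21, SE 1.69, adjusted p = 0.00944) and Calca (-4.82, SE 1.44, adjusted p = 0.0162, edgeR, and 0.0624 with limma-voom). None was called higher than gland, although Chga had an unadjusted p under 0.05 in all 3 comparisons and Chgb in B1/P/Rbf tumors, and DESeq2 called these 4 values. The medians of the 8 were -0.087, -0.194 and 0.718, and those of all genes 0.051, 0.122 and 0.055. These 3 comparisons share the 3 glands.

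Groups that did not overlap were counted in the same way. Against B1/P, only Calca in B1/P/Rbf lay above every B1/P tumor (5% of all genes did so, and 5.48% lay below), and no gene was separated in P/Rbf (3.74% above and 5.11% below). Between the T121 groups 0 were separated (1.71% above and 1.31% below). Against gland, Chga and Snap25 lay above and Syp below in B1/P/Rbf (23.1% and 27.4% of all genes), Chga above and Syp, Insm1 and Calca below in B1/P (18.7% and 22.7%), and Syp, Eno2 and Stmn2 below in P/Rbf (20% above and 26.5% below).

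Levels of different genes were compared as CPM per kilobase of exon. In glands Syp (median 1.61 CPM per kb) and Eno2 (1.55) were highest and did not differ beyond their ranges, followed by Stmn2 (1.01) and Insm1 (0.939), then Calca (0.641). Chgb (0.0865), Snap25 (0.0598) and Chga (0.0425) formed a lower tier, with Dll3 (0.0137) last. In B1/P/Rbf tumors the order of medians began with Chga (0.906), Insm1 (0.843) and Calca (0.512), in B1/P tumors with Eno2 (1.03) and Chga (0.837), and in P/Rbf tumors with Insm1 (0.399), Snap25 (0.297) and Eno2 (0.269). Within each tumor group every neighbouring pair overlapped in range.

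The genes were related to each other to different degrees across tumors. Tumor 290845 (P/Rbf) was among the 3 highest of 15 tumors for 6 genes (Chga, Chgb, Syp, Insm1, Calca and Dll3), and tumor 208863 (B1/P/Rbf) for 5 (Chga, Chgb, Syp, Insm1 and Snap25). Across the 15 tumors, Pearson's r of log2 CPM was 0.709 for Chgb with Syp, 0.693 for Chgb with Insm1, 0.658 for Chga with Syp and 0.116 for Chga with Insm1. Insm1 with Eno2 gave -0.619 and Chga with Snap25 -0.208. These are descriptions over tumors of 3 genotypes, and 2 or 3 high tumors weigh on each.

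**Figure D3:**
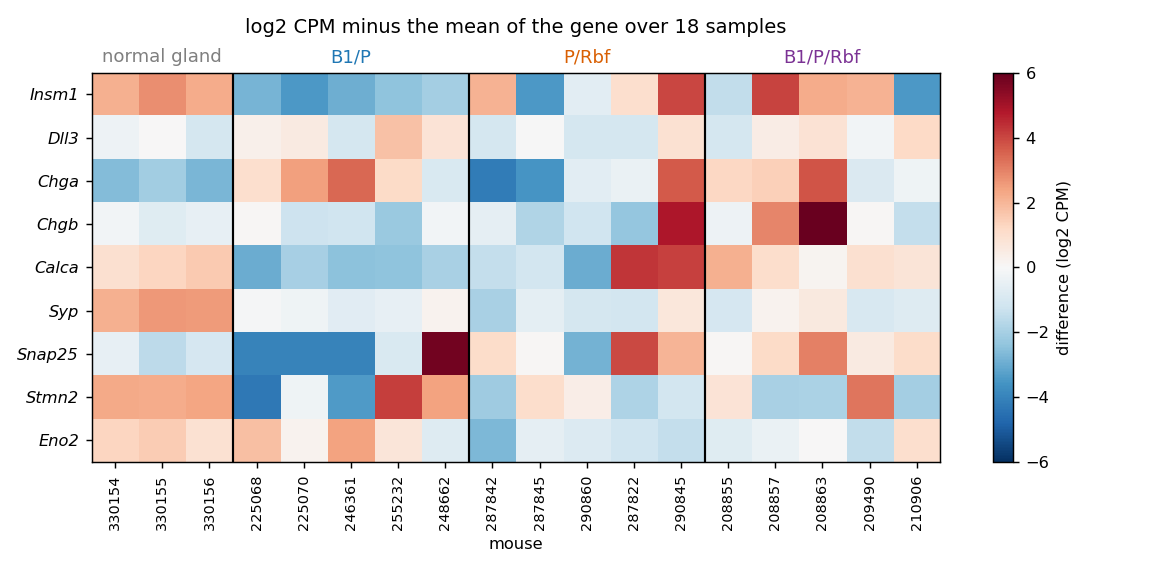
Log2 CPM (prior count 2) of the 9 genes in each mouse after subtraction of the gene's mean over 18 samples. Red is above and blue below that mean. Tumors 290845 and 208863 are red for Insm1, Chga, Chgb and Snap25, whereas B1/P tumors are blue for Insm1 and Calca.

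Among 14916 genes at 1 CPM or more in tumors, those most like each gene over the 15 tumors were listed by Pearson's r, with no test. For Chgb the first 2 were Ptprr (0.946) and Ddc, an enzyme of amine synthesis (0.882). For Insm1 they were Esrp2, an epithelial splicing regulator (0.886), Map3k13 (0.876) and Gabarapl2 (0.862). For Calca they were B830017H08Rik (0.896), Gclc (0.865) and Hmgn5 (0.848). For Eno2 they were Pcdhgc3 (0.943), Rad52 (0.923) and Zfp13 (0.887). The rest had r between 0.766 and 0.864, with Usp20, Adora2a and Zfp213 for Chga, Ccdc141, Rarb and Kit for Syp, Lcorl, Cetn2 and Cblc for Snap25, and Bnc1, Crym and Fetub for Stmn2.

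Other neuroendocrine transcription factors also varied widely from tumor to tumor. Of 20 listed, 12 were tested, and B1/P/Rbf against B1/P gave 2 called higher and 0 called lower (median log2 fold change 2.27, against -0.062 for all genes), where 7.36% and 9.29% of all genes were called. In P/Rbf against B1/P, 3 were higher and 1 lower (median 1.92), where the shares were 8.43% and 10.8%. Isl1, a LIM homeodomain factor, had 141, 31.9, 2.40, 0.964 and 0.162 CPM in the B1/P/Rbf tumors and at most 0.0631 CPM in B1/P tumors (adjusted p = 0.0012). Myt1 lay between 1.24 and 14.4 CPM in the B1/P/Rbf tumors and at or below 0.159 CPM in B1/P tumors (adjusted p = 0.00539), and Sox11 was called in P/Rbf against B1/P (3.40, SE 1.06, adjusted p = 0.0328). Against gland 4 factors were higher in B1/P/Rbf, 2 in B1/P and 3 in P/Rbf tumors, Sox11 among them each time, where 17.1%, 16.8% and 17.4% of all genes were called higher. Isl1, at 2.37 to 3.17 CPM in glands, was lower than gland in B1/P (-6.65, SE 1.62, adjusted p = 0.00467) and in P/Rbf tumors (-4.77, SE 1.42, adjusted p = 0.0139), and no other factor was called lower than gland.

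Of 15 granule genes, 10 were tested, and 2 were higher in B1/P/Rbf than in the B1/P group (Slc18a1, a vesicular amine transporter, and Resp18, a granule protein) and Resp18 alone in P/Rbf, where 7.36% and 8.43% of all genes were called higher. Resp18 was at 0 in all B1/P tumors and reached 1.49 CPM in 208863 and 4.56 CPM in 290845, the tumors with the most Chgb. Ptprn, a granule membrane protein, was higher than gland in all 3 tumor groups (log2 fold changes of 6.05, 5.30 and 6.45 in the order B1/P/Rbf, then B1/P, then P/Rbf), and Scg3, a granin-binding protein, lower in all 3 (-5.68, -6.36 and -5.46).

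Peptide hormones other than Calca reached high levels in single tumors. Of 15, 10 were tested, with 2 higher in B1/P/Rbf and 1 in P/Rbf than in B1/P tumors and 0 lower in either (median log2 fold changes 1.53 and -0.295), where 7.36% and 8.43% of all genes were called higher. Against gland the B1/P/Rbf group had 3 higher and 2 lower, the B1/P group 0 and 2, and the P/Rbf group 1 and 3. Of all genes, 17.1% were called higher and 20% lower in the first of these, 16.8% and 16.9% in the second, and 17.4% and 20.3% in the third. The hormone genes called lower were Cck (cholecystokinin) and Tac1 (the substance P precursor) in all 3 tumor groups and Penk (proenkephalin) in P/Rbf. Npy, neuropeptide Y, had 1431, 26.5, 145, 65.4 and 1.75 CPM in the B1/P/Rbf tumors and 9.32, 1.36, 35.6, 2.82 and 41.5 CPM in P/Rbf tumors. It was at or below 0.189 CPM in B1/P tumors and 0.0782 CPM in glands, so every T121 tumor lay above every other sample (adjusted p = 0.00087 and 0.00513 against B1/P, edgeR). Of all genes, 5% in B1/P/Rbf and 3.74% in P/Rbf lay above every B1/P tumor, and 23.1% and 20% above every gland. The share of all genes that separate both T121 groups from all other samples was not counted. Gcg, proglucagon, had 227, 842, 357, 0.0507 and 25.0 CPM in the B1/P/Rbf tumors and at most 0.441 CPM in all other samples (adjusted p = 0.000902 against B1/P and 0.012 against P/Rbf). Tumor 208855, highest for Npy and Isl1, had 0.170 CPM of Insm1 and 0.284 CPM of Chgb.

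**Figure D4:**
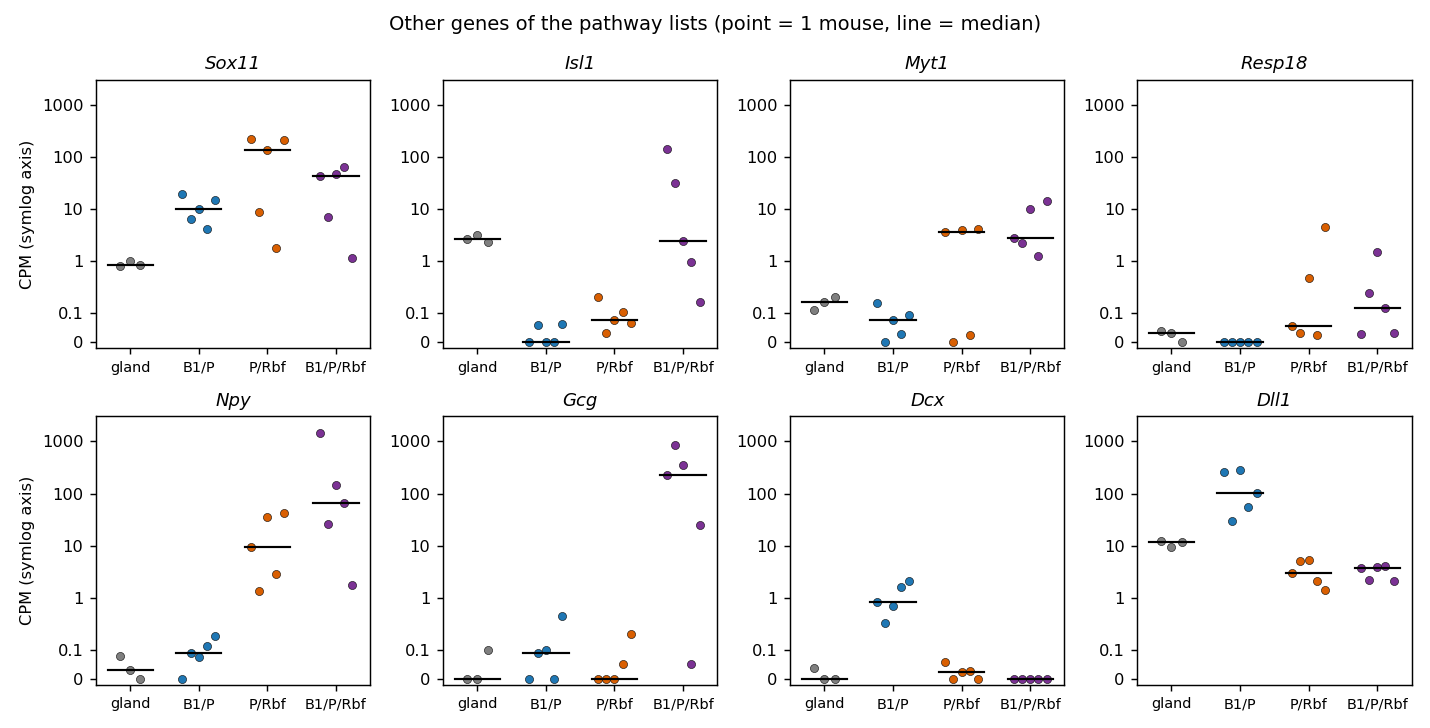
CPM of 8 genes from the wider lists, on an axis that is linear below 0.1 CPM and logarithmic above. Points are mice and lines group medians. Npy separates the 10 T121 tumors from all other samples (the share of all genes that do so was not counted), and Dcx and Dll1 are highest in B1/P tumors.

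Genes of vesicle fusion and the neuronal cytoskeleton were called in both directions. Of 16 vesicle genes tested, 1 was higher (Syn2, synapsin 2, at 3.26 on the log2 scale, SE 0.88, adjusted p = 0.0187) and 2 lower (among them Stx1a, a syntaxin partner of SNAP25) in B1/P/Rbf than in the B1/P group. In P/Rbf against B1/P, 0 were called higher and 3 lower (Stx1a and Vamp1 among them). The vesicle genes were thus called about as often as all genes, of which 16.7% and 19.2% were called in these comparisons. Of 15 cytoskeletal and surface genes tested, B1/P/Rbf against B1/P gave 2 called higher and 4 lower, and P/Rbf against B1/P 2 and 2, where 7.36% and 9.29%, and 8.43% and 10.8%, of all genes were called. Dcx, doublecortin, lay between 0.326 and 2.11 CPM in B1/P tumors and was at 0 in all B1/P/Rbf tumors. Sox10, a marker of Schwann cells, lay between 163.5 and 612 CPM in B1/P tumors and at or below 2.73 CPM in T121 tumors. Of the 10 Schwann cell and nerve markers, summed to 283 to 715 CPM in B1/P, 93.8 to 193 in B1/P/Rbf, 50.7 to 315 in P/Rbf tumors and 325 to 511 in glands, none was at 0 throughout a group. Their part in the neuronal genes was not tested.

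The Notch pathway restrains neuronal differentiation in many tissues. Of 14 genes tested, B1/P/Rbf against B1/P gave 0 called higher and 3 called lower (median -0.685), and 0 higher and 5 lower in P/Rbf (median -0.689), where 9.29% and 10.8% of all genes were called lower. Against gland, 6 were higher and 0 lower in B1/P tumors (median 1.10), 1 higher (Hes1, a Notch target) and 1 lower (Dll1) in B1/P/Rbf, and 2 higher (Hes1 and Nrarp, also a target) and 1 lower (Dll1) in P/Rbf, with 16.8%, 17.1% and 17.4% of all genes called higher. Dll1, an activating ligand and relative of Dll3, lay between 29.8 and 277 CPM in B1/P tumors, 2.11 and 4.06 in B1/P/Rbf, 1.43 and 5.29 in P/Rbf tumors and 9.23 and 12.4 in glands. It was lower in both T121 groups than in B1/P tumors (log2 fold changes of -5.51 and -5.43, SE 0.61 and 0.60, adjusted p = 7.61e-05 and 9e-05, edgeR) and higher in B1/P tumors than in glands (3.71, SE 0.69, adjusted p = 0.000598). Of 8 basal epithelial markers, 3 were lower in B1/P/Rbf and 2 in P/Rbf than in B1/P tumors, Trp63 and Oxtr both times, with summed levels of 373 to 2190 CPM in B1/P, 53.2 to 337 in B1/P/Rbf, 78.4 to 1461 in P/Rbf tumors and 312 to 457 in glands, none at 0 throughout a group, and their part in the Notch genes was not tested. Rest, the repressor of neuronal genes, did not differ between tumor groups by the test (-0.17 and -0.36 against B1/P, adjusted p = 0.601 and 0.208) and was higher than gland in all 3 tumor groups (0.87, 1.04 and 0.68, adjusted p = 0.00788, 0.00289 and 0.029). Its partner Hdac1 was higher in both T121 groups than in B1/P tumors (0.72 and 0.62, adjusted p = 0.0232 and 0.0414).

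Relatives of the 9 genes showed their own patterns. Synpr, a paralog of Syp, was lower in both T121 groups than in B1/P tumors (adjusted p = 0.000464 and 0.000552, edgeR), with B1/P values from 0.148 to 22.6 CPM. Sypl was higher in P/Rbf than in B1/P tumors (0.82, SE 0.20, adjusted p = 0.0111) and Stmn1, linked to proliferation, likewise (1.42, SE 0.35, adjusted p = 0.0106). Eno3, the muscle enolase, and Sypl2, of muscle, were lower than gland in all 3 tumor groups, at 1126 to 2416 CPM and 133 to 231 CPM in the glands. Eno1 (575 to 2498 CPM in tumors), Snap23 (20.96 to 58.0), Snap29 (30.5 to 44.9) and Stmn4 (0.101 to 1.39) did not pass the test against B1/P in either T121 group. Stmn3 and Insm2 did not pass the filter, with at most 0.441 and 0.0340 CPM in tumors.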

How the data were processed

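RNA was sequenced from 15 tumors and 3 glands. The authors deposited RSEM expected counts per gene, not normalized, of which 5.61% of values were not whole, and these were rounded. The submitters' processing notes name cutadapt 1.18, RSEM 1.3.0, FastQC 0.11.5, Picard 1.119 and DESeq2 1.28.1. The study's methods name a human genome build, whereas all 55450 gene identifiers matched mouse GENCODE M21, whose GRCm38 positions are given. Whether counting used the strand is not given in the sources used here.

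Genes were filtered with filterByExpr (minimum count 10), which kept 19186, and fitted with edgeR 4.0.16 (TMM factors, quasi-likelihood test, R 4.3.3) over all 18 samples with group as the only term. The 6 pairs of groups were compared, and adjusted p values (Benjamini-Hochberg over all genes tested) of 0.05 or less were called. Every adjusted p in the text is edgeR's unless DESeq2 1.42.0 or limma-voom (limma 3.58.1) is named. Log2 CPM used a prior count of 2. The code was tested on simulated counts. Dll3, removed by the filter, was tested by exact permutation. Ratios of summed counts carry exact 95% intervals, which cover counting error only. Replicate samples differed by more than sampling noise (chi-square per degree of freedom of 27.2 or more).

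The genes and the 21 gene lists were chosen with earlier results of these data known. Genes outside the 9 were named where they were called or are relatives of a member. Alternatives were DESeq2, limma-voom with quantile normalization, no TMM, RLE factors in edgeR, no filter, the study's filter, only the 2 groups compared, another prior count, and each sample left out. No sample was left out of the main analysis. The T121 transgene was not analysed here, and some genes of the lists are counted but not reported by name.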

Additional observations from a re-analysis of the deposited data

Results flagged for a closer look

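Chgb in P/Rbf tumor 290845, at a log2 CPM of 3.61, lay far from the other 4 tumors of its group. It was the only such sample among 27 groups of values examined (9 genes in 3 tumor groups), and chance singles out a sample in about 1 in 20 groups.

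The difference from gland was not the same in all tumor groups for 3 genes, by a test of the difference between tumor groups (edgeR, adjusted p), since the glands cancel. These are the same comparisons between tumor groups as given above, and add no further test. For Calca it was 4.69 higher on the log2 scale in B1/P/Rbf than in the B1/P group (adjusted p = 0.0269, edgeR) and 6.47 higher in P/Rbf (adjusted p = 0.00627). For Insm1 it was 6.17 and 5.99 higher (adjusted p = 0.0165 and 0.017, edgeR). For Eno2 it was -2.5 in P/Rbf against B1/P (adjusted p = 0.0102, edgeR). These comparisons share the B1/P tumors.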

How the results depend on the processing

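No paired analysis was possible because the labels give the groups no shared replicate numbers and each sample came from a different mouse. In B1/P/Rbf against B1/P, 2 genes were called, 3 with DESeq2, 1 with limma-voom, 1 with only the 2 groups fitted (7 genes tested, since Insm1 did not pass the filter there), and between 1 and 3 with single samples left out. In P/Rbf against B1/P, 3 were called, 4 with DESeq2, 0 with limma-voom and 1 with only the 2 groups (5 tested, since Insm1, Calca and Chgb did not pass the filter there). In B1/P/Rbf against gland, 1 was called, 3 with DESeq2, 2 without TMM, 3 with only the 2 groups, and between 1 and 3 with single samples left out. In B1/P against gland, 3 were called, 4 with DESeq2 and 2 with limma-voom, and in P/Rbf against gland 2, 3 with DESeq2 and 1 with limma-voom. With only the 2 groups fitted, Stmn2 was called lower in P/Rbf than in gland, where 42.9% of all genes were called. Of all genes, DESeq2 called 23% and limma-voom 16% for the B1/P/Rbf group against B1/P, and only the 2 groups 12.3%. For P/Rbf against B1/P these shares were 26.2%, 16.5% and 9.3%. Against gland, DESeq2 called 41.8% for the B1/P/Rbf group, where leaving out TMM gave 41.7% and only the 2 groups 48.8%. DESeq2 and limma-voom called 39% and 36.6% for B1/P against gland, and 42.3% and 38.7% for P/Rbf against gland. The cause of the changes between tools was not tested.

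Snap25 against B1/P changed sign with limma-voom, to 3.884 for B1/P/Rbf and 3.769 for P/Rbf, and without B1/P tumor 248662. With single samples left out it ran from -2.738 to 4.611 and from -2.611 to 5.237. Chgb in P/Rbf against B1/P ran from -0.772 (without tumor 290845) to 4.061. Syp against gland, and Insm1 in B1/P against gland, were called in all 24 settings. The study's filter (log2 CPM of 6 in 6 samples, 4551 genes) kept none of the 9 genes and gave no value. Genes at a few counts, Dll3 above all, are limited by depth. Against gland, quantile normalization moved the median log2 fold change of all genes from 0.051 to 0.205 for B1/P/Rbf and from 0.055 to 0.208 for P/Rbf, and leaving out TMM moved it to 0.419 and 0.327, and from 0.122 to 0.475 for B1/P. Syp stayed lower than gland without TMM (-2.374, -2.388 and -2.772).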
